A study of Drosophila melanogaster with 12 samples.

Results

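The imaginal disc growth factor (Idgf) family was followed across wings of female Drosophila melanogaster before and after the start of metamorphosis, with and without knockdown of the ecdysone receptor EcR. Its members were taken by name, Idgf1, Idgf2, Idgf3, Idgf4 and Idgf5, which are 5 of the 15240 genes in the deposited RNA table, by a rule that uses no measured value. Of these 5, only Idgf3 and Idgf4 averaged 10 or more normalized counts across the 8 RNA libraries and could be tested. Idgf1, Idgf2 and Idgf5 did not pass that filter and are described by their reads.

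Idgf proteins are secreted glycoproteins with the fold of the glycoside hydrolase family 18 chitinases, but they lack chitinase activity. They were found as factors that promote growth of imaginal disc cells in culture together with insulin, and in the larva they are made by the fat body and blood cells as well as by epithelia. Later work ties the family to cuticle formation and to wound and immune responses. Pulses of the steroid ecdysone, which act through EcR and its partner Ultraspiracle, time the change from larva to prepupa in which the wing disc stops dividing, everts and lays down a pupal cuticle.

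The 8 RNA libraries form 4 groups of 2. Wild-type animals (genotype +/+ on each chromosome pair) and EcR-RNAi animals were each sampled at -6 h, as wandering third-instar larvae, and at +6 h relative to puparium formation, after staging at the white prepupa, and all were females raised at 25 degrees. EcR-RNAi animals were yw and carried Vg-GAL4, UAS-Flp, the flip-out cassette Tub>>CD2>>GAL4, UAS-GFP and UAS-EcR-RNAi[104]. With such a cassette Gal4 persists in cells that have expressed the Vg driver and in their descendants, so wing tissue outside that lineage need not carry the knockdown. The wild type has none of these transgenes, so effects of strain background and of EcR loss cannot be told apart. Nothing states that replicates came from separate animals or cultures, and the spread behind every p-value here is that between libraries, which may be technical. In bulk tissue, fewer cells of a type and less RNA per cell cannot be told apart. The 4 EcR CUT&RUN libraries were not used here, because their peaks are in build dm3 and gene positions in that build were not at hand.

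Libraries held 6444939 to 10016236 reads assigned to genes. EcR itself, the target of the hairpin, had 2194 and 1924 normalized counts in the wild-type libraries of -6 h and 5764 and 6852 in those of +6 h. In EcR-RNAi it had 1634 and 1307 and then 2201 and 2081. The values in EcR-RNAi lay below those in wild type at both stages, by a log2 fold change of -0.49 ± 0.14 (SE) at -6 h and -1.55 ± 0.14 at +6 h. The adjusted p-values in limma were 0.0449 and 1.0e-05. The -6 h call ended in 7 of its 20 alternatives, with adjusted p-values of up to 0.24. The 5 wing epithelium markers vg, nub, sd, ap and rn were all read in every library.

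Idgf4 was the family member that wings expressed at a substantial level, and it was high in the larva and low in the prepupa in both genotypes. Idgf4 lies on the X chromosome (CG1780). In wild type at -6 h its level was 1713 normalized counts in replicate 1 and 1684 in replicate 2, or 1698.7 ± 20.7 (SD, n = 2). At +6 h the wild-type libraries were at 115 and 103, or 108.8 ± 8.5 (SD, n = 2). EcR-RNAi wings were at 919 and 1002 at -6 h, or 961 ± 59 (SD, n = 2), and at 164 and 186 at +6 h, or 175.0 ± 16.1 (SD, n = 2). The order of the groups was therefore wild type at -6 h, EcR-RNAi at -6 h, EcR-RNAi at +6 h and wild type at +6 h, and no library of one group overlapped with the next. These values rest on 4399, 175, 2167 and 322 reads in wild type at -6 h and +6 h and in EcR-RNAi at -6 h and +6 h.

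**Figure D1:**
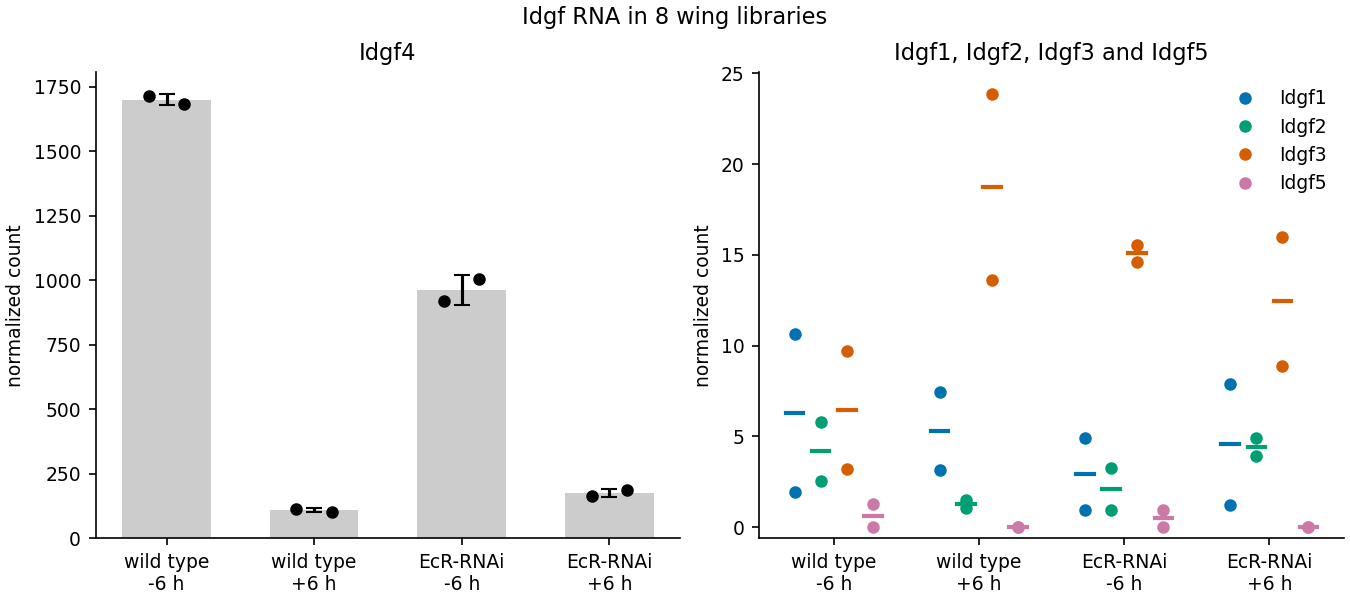
Normalized counts of the Idgf genes in wild-type and EcR-RNAi wings at -6 h and +6 h. On the left, bars are the mean of 2 libraries for Idgf4, error bars the SD and points the libraries, which fall from 1713 and 1684 to 115 and 103 in wild type; on the right, points are libraries and short lines group means of the other members, none above 23.9 in any library.

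In wild type the stage comparison asks how the wing changes as it passes through the ecdysone pulse at the larval end. Idgf4 fell 15.5-fold from -6 h to +6 h, a log2 fold change of -3.95 ± 0.12 (SE), limma adjusted p = 4.6e-10, on the log2(normalized count + 1) scale. Only 10 of the 7775 genes tested had a more negative value. Decreases were common here, with 26.7% of the tested genes called lower and 29.1% called higher (55.7% in all), so a call in itself was common in this comparison. Increases made up 52.1% of these calls, and 32.3% with upper-quartile and 36.0% with quantile scaling. The authors' deposited table gives 3.92 with a standard error of 0.188 for Idgf4, written there as -6 h over +6 h.

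In EcR-RNAi wings Idgf4 still fell, but by less. The change from -6 h to +6 h was -2.45 ± 0.12 (SE) on the log2 scale, or 5.47-fold, with limma adjusted p = 4.1e-07. That is 62.0% of the wild-type change on the log2 scale. In this genotype 16.0% of genes were called in either direction and 3.88%, or 302 genes, were called lower. Genes called lower numbered 874 with upper-quartile and 945 with quantile scaling, and the share of increases among calls went from 75.7% to 46.9% and 45.3%. By the main scaling 20 genes had a more negative value than Idgf4. The difference between the stage changes, tested as the genotype by stage interaction, was 1.503 ± 0.16 (SE), limma adjusted p = 7.8e-05, and amounts to a fall 2.83-fold smaller in EcR-RNAi. For the interaction 27.0% of genes were called and 11.6% were called in the same direction as Idgf4, and the share of positive values among calls went from 43.1% to 60.6% with upper-quartile and 54.2% with quantile scaling.

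The genotypes differed in opposite directions at the 2 stages, so that the Idgf4 range was narrowed from both ends in EcR-RNAi. At -6 h EcR-RNAi wings had 1.77-fold less Idgf4 RNA than wild type, with a log2 fold change of -0.82 ± 0.12 (SE) and limma adjusted p = 9.5e-04. At this stage 10.9% of genes were called with 3.36% lower and 7.51% higher, and of the members Idgf4 was called lower and none higher. At +6 h they had 1.60-fold more, with a log2 fold change of 0.68 ± 0.12 (SE) and limma adjusted p = 7.7e-04, where 42.9% of genes were called, 21.3% higher and 21.6% lower, and no member was called lower. Upper-quartile scaling took the share of higher calls at this stage from 49.6% to 64.4%. The authors' deposited table has the same pair of directions for Idgf4, with 0.82 for wild type over EcR-RNAi at -6 h (adjusted p = 1.1e-05) and -0.68 at +6 h (adjusted p = 0.00403). By size the larval difference exceeded that of 89.4% of all tested genes and the prepupal one that of 69.7%. Each genotype comparison shares a group of libraries with each stage comparison, so they are not independent of each other.

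**Figure D2:**
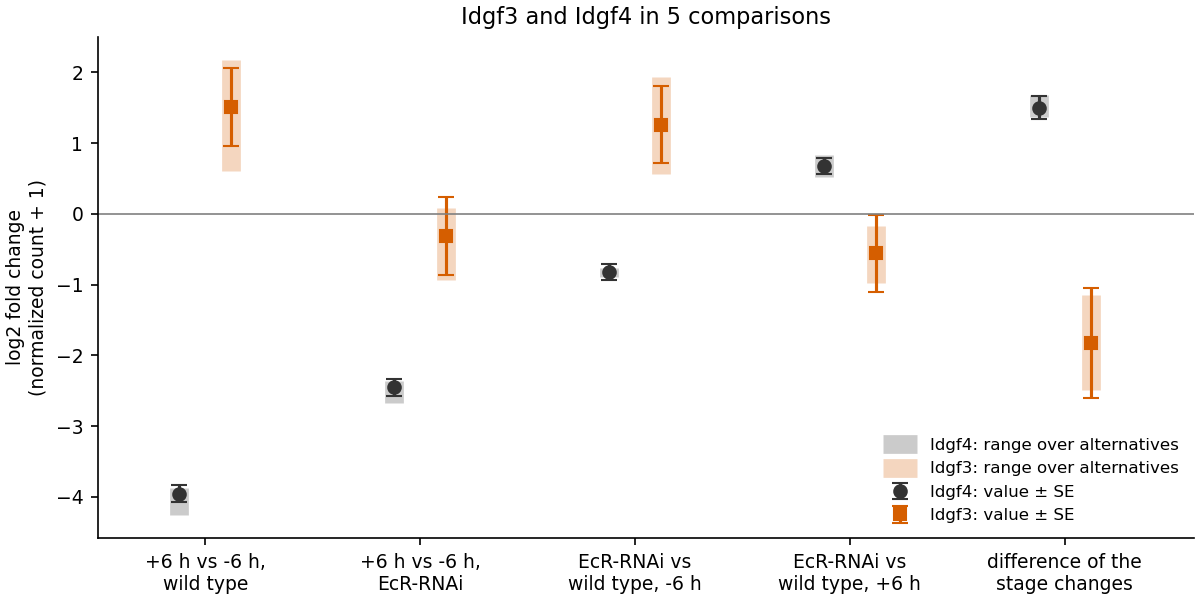
Log2 fold changes of Idgf4 (circles) and Idgf3 (squares) in the 2 stage comparisons, the 2 genotype comparisons and the difference of the stage changes. Error bars are the standard error and shaded bars the range over alternative analyses; the Idgf4 values keep their sign throughout, while the Idgf3 stage change in EcR-RNAi spans 0.

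Idgf3 was read at a far lower level than Idgf4 and did not follow it. It lies on 2L (CG4559) directly after Idgf1 and Idgf2. In wild type its level was 9.68 and 3.20 normalized counts at -6 h, from 10 and 5 reads, and 23.9 and 13.6 at +6 h, from 16 and 13 reads. Both +6 h libraries were above both -6 h libraries, although the replicates of a stage differed by up to 3.02-fold. Idgf3 rose in wild type by 1.51 ± 0.55 (SE) on the log2 scale, limma adjusted p = 0.0359, in the direction opposite to Idgf4. This call ended without replicate 2 at -6 h (0.84, adjusted p = 0.259) or replicate 1 at +6 h (1.13, adjusted p = 0.200) of wild type. It also ended with upper-quartile scaling (1.23, limma adjusted p = 0.0699), quantile scaling (0.61, adjusted p = 0.347) and DESeq2 (1.59, adjusted p = 0.0670). In the authors' deposited table Idgf3 is not called in this comparison (adjusted p = 0.12).

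EcR-RNAi wings were at 14.6 and 15.6 normalized counts of Idgf3 at -6 h and at 16.0 and 8.88 at +6 h. The 2 stages overlapped, and the log2 fold change of -0.31 ± 0.55 (SE) was not called, with a 95% interval from -1.52 to 0.90. At -6 h both EcR-RNAi libraries were above both wild-type libraries, at a log2 fold change of 1.26 ± 0.55 (SE), limma adjusted p = 0.176. At +6 h the groups overlapped, at -0.56 ± 0.55 (SE), limma adjusted p = 0.446. The interaction was -1.82 ± 0.77 (SE), with a 95% interval from -3.53 to -0.11 that is not adjusted for the number of genes and excludes 0. After adjustment over all genes tested (limma adjusted p = 0.109) a difference between the genotypes in the Idgf3 stage change was not called. Idgf3 had 100 reads in all, and the interaction depended on single libraries. Without replicate 1 of wild type at -6 h it was -2.49.

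Idgf1 (CG4472) and Idgf2 (CG4475), the neighbours of Idgf3 on 2L, were close to the limit of what these libraries can show. For Idgf1 wild type was at 10.6 and 1.92 normalized counts at -6 h and at 7.46 and 3.15 at +6 h, and EcR-RNAi at 0.97 and 4.91 and then at 1.23 and 7.89. All 4 groups overlapped with each other, and in wild type at -6 h the replicates spanned most of the range of the 8 libraries. Idgf1 had 38 reads over the 8 libraries. The ratio of +6 h to -6 h, from reads scaled by the size factors, was 0.913 in wild type (exact 95% counting interval 0.332 to 2.33) and 1.58 in EcR-RNAi (0.524 to 4.997). Counting intervals cover counting error only, not the spread between libraries.

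Idgf2 had 25 reads in all. Its levels in wild type were 5.81 and 2.56 normalized counts at -6 h and 1.49 and 1.05 at +6 h, the latter from 1 read in each library. In EcR-RNAi they were 0.97 and 3.28 at -6 h and 4.92 and 3.95 at +6 h. Wild type at +6 h lay below the other stage in its genotype without overlap, and EcR-RNAi at +6 h lay above, yet each counting interval included 1. The ratio of +6 h to -6 h was 0.319 in wild type (95% counting interval 0.0340 to 1.499, from 2 and 10 reads) and 1.97 in EcR-RNAi (0.568 to 7.65). EcR-RNAi over wild type at +6 h was 3.56 (0.710 to 34.4). When all 11949 genes with any read were fitted, none of the 15 limma values of Idgf1, Idgf2 and Idgf5 was called, with a lowest adjusted p of 0.144 and 1 unadjusted p under 0.05, that of the Idgf2 interaction. The authors' deposited table does not call Idgf1 or Idgf2 either, and it gives no adjusted p for Idgf5.

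The layout of the locus bears on these low counts. In the RefSeq annotation of the fly the gene span of CG5888 covers Idgf1 and reaches into Idgf2, and the sources used here do not say how counting handled strand, so reads of CG5888 and of these genes may have been exchanged or dropped. CG5888 had 8.19 to 40.9 normalized counts per library. Idgf1, Idgf2 and Idgf3 are also related copies, and how reads matching more than 1 of them were treated is not given, so the split of counts among them is uncertain.

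Idgf5 (CG5154, on 2R) was barely read. Replicate 2 of wild type at -6 h held 2 reads and replicate 1 of EcR-RNAi at -6 h held 1, or 1.28 and 0.97 normalized counts, and the other 6 libraries held 0. A count of 0 allows up to 3 reads, which is 2.46 to 4.47 normalized counts over those 6 libraries. No stage or genotype difference in Idgf5 was detectable at this depth.

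Together the 5 genes summed in wild type to 1739 and 1693 normalized counts at -6 h and to 148 and 121 at +6 h. Per kilobase of annotated gene span, introns included, Idgf4 made up 98.1% and 99.4% of the family in wild type at -6 h and 77.9% and 86.1% at +6 h. In EcR-RNAi its share was 98.4% and 97.7% at -6 h and 90.0% and 88.0% at +6 h. Without dividing by length the lowest share was 77.8% (exact 95% binomial interval 68.3% to 85.5%, from 99 family reads). With CG5210, which the current annotation names Idgf6, counted as a further member, the share of Idgf4 per kilobase was 96.1% and 97.8% in wild type at -6 h but 53.6% and 70.5% at +6 h, where CG5210 held 31.1% and 18.05%. In EcR-RNAi it was then 94.1% and 94.4% at -6 h and 85.6% and 83.8% at +6 h. The sum of the other 4 members lay between 8.97 and 32.8 normalized counts in all libraries, so among the 5 genes the smaller Idgf4 share at +6 h came with the fall of Idgf4 itself.

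Markers of other tissues that make Idgf proteins were read in these libraries, and their sums differed between the genotypes. The 7 fat body markers, larval serum protein and fat body protein genes among them, were read in all 8 libraries. In wild type they summed to 237 to 635 normalized counts at -6 h and 318 to 450 at +6 h, against 1994 to 4883 and 850 to 979 in EcR-RNAi. Of them 5 were called higher in EcR-RNAi at -6 h and 3 at +6 h, against 7.51% and 21.3% of all genes. The 12 haemocyte markers summed to 379 to 606 in wild type at -6 h and 1065 to 1215 at +6 h, and to 785 to 1178 and 782 to 804 in EcR-RNAi. Of the 10 haemocyte markers tested, 4 rose and 4 fell in wild type, 2 were higher and 0 lower in EcR-RNAi at -6 h, and 3 were higher and 2 lower at +6 h, so the sum does not stand for all of them. Among all genes 29.1% were called higher and 26.7% lower in the wild-type stage comparison. In EcR-RNAi 7.51% were higher and 3.36% lower than in wild type at -6 h, and 21.3% and 21.6% at +6 h. Of the 12 markers, lz, eater and nimC4 were at 0 in some libraries, and both prophenoloxidase genes in replicate 1 of wild type at +6 h. The genes lz and eater did not pass the filter and were not tested. Idgf4 was lower in EcR-RNAi at -6 h, where both marker sums were higher, and at +6 h Idgf4 and the fat body sum were higher in EcR-RNAi while the haemocyte sum was lower. Most of the haemocyte difference at -6 h came from the prophenoloxidase genes proPO-A1 and proPO45. In EcR-RNAi proPO-A1 was at 184 and 110 and proPO45 at 365 and 178 normalized counts. The wild-type values were 2.90 and 4.48 and then 21.3 and 5.77. In wild type at -6 h replicate 1 had more of the fat body and haemocyte markers than replicate 2 (635 against 237 and 606 against 379) and also more Idgf1, Idgf2 and Idgf3. In EcR-RNAi at -6 h the Idgf1, Idgf2 and Idgf3 levels were higher in replicate 2, which had more of the fat body markers (4883 against 1994) and fewer of the haemocyte markers. In wild type at +6 h replicate 1 had more of both marker sums and more Idgf1 and Idgf3, while Idgf2 had 1 read in each replicate. In EcR-RNAi at +6 h replicate 2 had more of both sums and more Idgf1 (7.89 against 1.23). That library had less Idgf3 (8.88 against 16.0). The Idgf2 values of the replicates (3.95 against 4.92) came from 4 reads in each and so differ only by the scaling. The wing epithelium sum was 17655 to 17980 in wild type at -6 h, where Idgf4 was highest, and 15178 to 15528 at +6 h, against 12625 to 16827 and 13535 to 15124 in EcR-RNAi. It was thus lower without overlap in EcR-RNAi at each stage and in wild type at +6 h. Of the 5 markers 1 was called lower at -6 h between genotypes and 1 in the wild-type stage comparison, against 3.36% and 26.7% of all genes. The 5 myoblast markers summed to 2258 to 2642 and then 3383 to 3940 in wild type, and to 2868 to 3355 and then 3863 to 4122 in EcR-RNAi. The 3 trachea markers summed to 1608 to 1717 and 2563 to 6086 in wild type and to 3256 to 4476 and 12709 to 14081 in EcR-RNAi, most of it from Gasp, which is also among the chitin genes. The part of these tissues in the Idgf values was not tested.

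**Figure D3:**
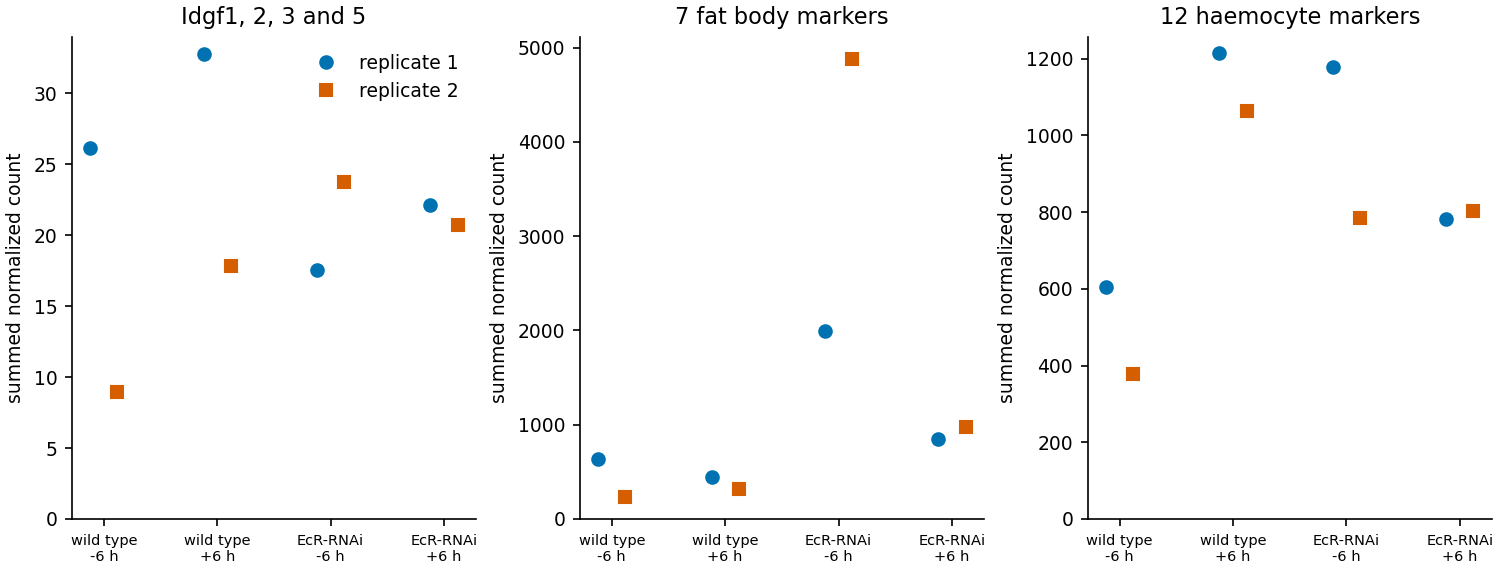
Summed normalized counts by library for Idgf1, Idgf2, Idgf3 and Idgf5 together (left), 7 fat body markers (middle) and 12 haemocyte markers (right). The fat body sum is highest in the EcR-RNAi libraries at -6 h (1994 and 4883), while the sum of the low Idgf genes stays between 8.97 and 32.8.

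The genes whose profile over the 8 libraries was nearest to Idgf4 were CG14566, Drip, an aquaporin gene, and Sox100B, a gene for an HMG-box transcription factor. Nearness was the root-mean-square difference between centred log2(normalized count + 1) values, which was 0.438, 0.462 and 0.593 for these genes against a median of 1.66 over all tested genes. As these genes were chosen for that likeness, their levels are a description. CG14566 went from 111 and 108 to 10.4 and 6.29 normalized counts in wild type and from 94.5 and 108 to 23.4 and 24.7 in EcR-RNAi. The genotypes overlapped at -6 h for this gene and not at +6 h. Drip went from 492 and 442 to 40.3 and 26.2 in wild type and from 143 and 159 to 44.3 and 25.6 in EcR-RNAi, so here the genotypes overlapped at +6 h and not at -6 h. Sox100B was at 75.5 and 56.4 and then 11.9 and 8.39 in wild type, and at 65.3 and 65.5 and then 13.5 and 21.7 in EcR-RNAi.

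Nearest to Idgf3 were Scr, a Hox gene, at 0.227, cbt, a zinc finger transcription factor gene, at 0.318 and Tsp42Ea, a tetraspanin gene, at 0.368, against a median of 0.806. They too were chosen for their profile, so no test is given. The gene cbt was at 435 and 324 and then 1145 and 908 normalized counts in wild type, and at 742 and 757 and then 830 and 709 in EcR-RNAi. Tsp42Ea was at 44.5 and 30.7 and then 125 and 91.3 in wild type, and at 59.5 and 68.0 and then 68.9 and 71.0 in EcR-RNAi. In cbt and Tsp42Ea the wild-type stages stood apart, with all 4 EcR-RNAi libraries between them. Scr, a low gene like Idgf3, was at 10.6 and 2.56 and then 16.4 and 11.5 in wild type. In EcR-RNAi it was at 17.5 and 12.3 and then 13.5 and 7.89. For Scr, and for Idgf3 itself, the wild-type stages also stood apart, but no EcR-RNAi library lay between them.

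**Figure D4:**
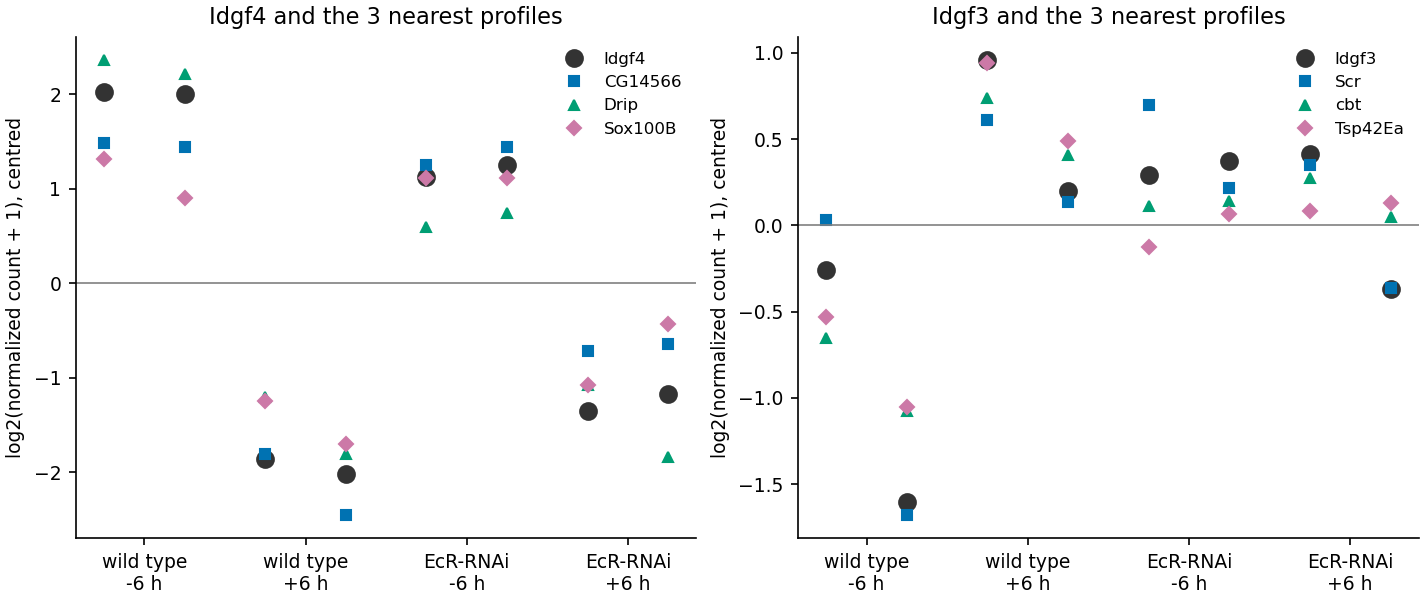
Centred log2(normalized count + 1) in each of the 8 libraries for Idgf4 (left) and Idgf3 (right), large circles, and the 3 genes with the smallest root-mean-square difference from each. Within a group, replicate 1 stands left of replicate 2; Idgf4 and its nearest genes are above their mean at -6 h and below it at +6 h in both genotypes.

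Idgf4 changed in the direction opposite to that of several relatives among the glycoside hydrolase family 18 genes, which include chitinases that degrade cuticle at a moult. The RNA data list 12 such genes outside the Idgf members, and 8 of them were tested. In wild type 5 rose and 1 fell from -6 h to +6 h, with a median log2 fold change of 1.144 against -0.01 over all tested genes. Among all genes 29.1% were called higher and 26.7% lower here. With upper-quartile scaling 5 rose and 1 fell (median 0.84), and with quantile scaling 4 rose and 1 fell (median 0.72). The moulting chitinase gene Cht5 rose from 398 and 463 to 7252 and 5407 normalized counts (3.86 ± 0.15 (SE) on the log2 scale, limma adjusted p = 3.8e-09), and the chitinase gene Cht7 by 2.21 ± 0.13 (limma adjusted p = 1.1e-07). The family 18 gene CG8460 fell (-0.83 ± 0.16, limma adjusted p = 0.00102). In EcR-RNAi 3 rose and 1 fell, against 12.1% and 3.88% of all genes, with Cht5 at 1.82 ± 0.15 (limma adjusted p = 1.3e-05). With upper-quartile and with quantile scaling 2 rose and 1 fell in this genotype. At +6 h Cht5 was lower in EcR-RNAi than in wild type (-2.14 ± 0.15, limma adjusted p = 1.8e-06), whereas Idgf4 was higher. CG8460 was higher there, as Idgf4 was (0.68 ± 0.16, limma adjusted p = 0.00545). At -6 h Cht3 was lower, also as Idgf4 was (-0.75 ± 0.12, limma adjusted p = 0.00200). Of the 8 genes 2 were higher and 1 lower in EcR-RNAi at -6 h, against 7.51% and 3.36% of all genes. At +6 h 1 was higher and 3 lower, against 21.3% and 21.6%. The interaction had 0 higher and 4 lower, against 11.6% and 15.4%.

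The 1 family 18 gene that fell in EcR-RNAi, CG5210, is named Idgf6 in the current annotation. In wild type its level was 33.9 and 25.6 normalized counts at -6 h and 61.1 and 24.1 at +6 h, so the wild-type stages overlapped (0.37 ± 0.41 (SE) on the log2 scale, limma adjusted p = 0.469). EcR-RNAi wings went from 39.0 and 32.8 to 8.61 and 9.86, without overlap (-1.85 ± 0.41, limma adjusted p = 0.0112). At +6 h CG5210 was lower in EcR-RNAi than in wild type (-1.95 ± 0.41, limma adjusted p = 0.00301), and its interaction of -2.22 ± 0.59 (limma adjusted p = 0.0163) had the sign opposite to that of Idgf4. The stage call in EcR-RNAi ended without replicate 1 (adjusted p = 0.083) or replicate 2 (adjusted p = 0.0612) of EcR-RNAi at +6 h. The interaction call ended without replicate 2 of wild type at -6 h (-2.03, adjusted p = 0.0642), replicate 1 of wild type at +6 h (-1.57, adjusted p = 0.0533) or replicate 1 of EcR-RNAi at +6 h (-2.13, adjusted p = 0.0564).

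**Figure D5:**
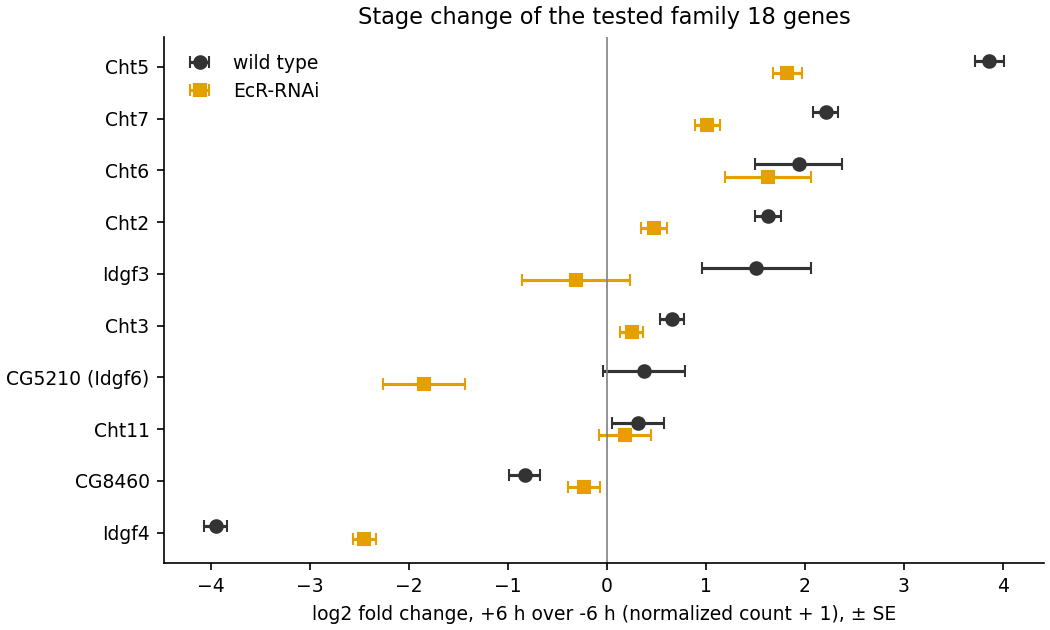
Log2 fold change from -6 h to +6 h (± SE) of the 10 tested genes of glycoside hydrolase family 18, Idgf3 and Idgf4 included, in wild type (circles) and EcR-RNAi (squares). Idgf4 has the most negative value in both genotypes (-3.95 and -2.45) and Cht5 the most positive (3.86 and 1.82).

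Genes that build chitin rose while Idgf4 fell. Of 16 tested chitin synthesis and assembly genes 14 rose and 0 fell in wild type (11 and 0 with upper-quartile scaling, 12 and 0 with quantile scaling), and 8 rose and 0 fell in EcR-RNAi, with medians of 1.92 and 1.40. Among all genes 29.1% were called higher in the wild-type stage comparison and 12.1% in that of EcR-RNAi. The chitin deacetylase gene Cda5 was at 4.49 ± 0.42 (SE) in wild type, limma adjusted p = 4.3e-04. At -6 h, where Idgf4 was lower in EcR-RNAi, 6 of the 16 were higher and 0 lower, against 7.51% and 3.36% of all genes. At +6 h 4 were higher and 3 lower, close to the shares among all genes of 21.3% and 21.6%. No chitin gene was called higher for the interaction and 5 were called lower (2 with quantile scaling), where 15.4% of all genes were called lower and Idgf4 was called higher.

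The insulin and Tor pathway, with which Idgf proteins act on cultured disc cells, had calls in both directions at shares near those of all genes in wild type. Of 18 tested genes 5 rose and 5 fell in wild type, against 29.1% and 26.7% of all genes. The pathway counts became 4 and 10 with upper-quartile scaling and 4 and 9 with quantile scaling. The calls over all 7775 genes shifted too, from 2259 higher and 2075 lower by the main scaling. They were 1589 and 3335 with upper-quartile and 1648 and 2930 with quantile scaling. In the stage comparison of EcR-RNAi 3 rose and 1 fell, against 12.1% and 3.88% of all genes. Between genotypes 2 were higher and 1 lower in EcR-RNAi at each of the stages. The shares among all genes were 7.51% and 3.36% at -6 h but 21.3% and 21.6% at +6 h. The interaction had 2 higher and 3 lower, against 11.6% and 15.4% of all genes. With upper-quartile and quantile scaling the EcR-RNAi stage change had 1 up and 1 down and 1 up and 2 down. Of all 7775 genes 773 rose and 874 fell there with the former, and 782 and 945 with the latter. The genotype comparison at +6 h had 5 higher and 1 lower with upper-quartile and 3 higher and 3 lower with quantile scaling. Over all genes those calls were 2231 higher and 1235 lower, and 1710 and 1533. Thor, the gene for the translation inhibitor 4E-BP, rose in wild type from 18.4 and 9.61 to 471 and 339 normalized counts (4.80 ± 0.36 (SE) on the log2 scale, limma adjusted p = 1.4e-05). Thor was already higher in EcR-RNAi at -6 h (2.70 ± 0.36, limma adjusted p = 0.00266). ImpL2, the gene for a secreted insulin-binding antagonist, was lower in EcR-RNAi at +6 h (-1.06 ± 0.15, limma adjusted p = 2.8e-04). Among the 7 adenosine deaminase growth factor and adenosine receptor genes, a separate family also known from insect cell culture, only Adgf-A passed the filter. It rose in wild type (2.41 ± 0.31, limma adjusted p = 5.2e-05) and in EcR-RNAi (2.16 ± 0.31, limma adjusted p = 6.9e-04), and its interaction of -0.26 ± 0.44 was not called (limma adjusted p = 0.71).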

How the data were processed

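The authors deposited a normalized count signal per gene and library, and its values are whole reads over 1 divisor per library: 100% came back as whole reads within 0.1 read. DESeq2 1.14.1, Subread 1.24.2, SAMtools 1.3.1, STAR 2.5.2b and build dm3 are named, without roles, in the submitters' processing notes. Per the file headers, the authors' deposited results give for each gene the log2 fold change, p-value and adjusted p, with 2 further scores, the standard error of the fold change and the test statistic, the latter not used. Members and gene lists were chosen with earlier results of these data known.

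The 7775 genes averaging 10 or more normalized counts were tested in R 4.3.3 with limma 3.58.1 (trend, robust) on log2(normalized count + 1), which understates changes of low genes. A model of 4 group means was fitted to all 8 libraries, with Benjamini-Hochberg adjustment over all genes and a threshold of 0.05. Alternatives included edgeR 4.0.16 and DESeq2 1.42.0 on recovered reads. The fit was tested on simulated counts. Counting intervals are exact Clopper-Pearson intervals. Named were all members, the 2 called list genes with the largest changes per direction, of which examples are given, and the 3 nearest profiles per tested member. Coding lengths were not at hand, so gene span in RefSeq Release 6 replaced them. No column of another sample was present.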

Additional observations from a re-analysis of the deposited data

Results flagged for a closer look

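The stage change of Idgf4 differed between the genotypes by the test of the difference itself. It was -3.95 ± 0.12 (SE) on the log2 scale in wild type and -2.45 ± 0.12 in EcR-RNAi, and the interaction of 1.503 ± 0.16 had limma adjusted p = 7.8e-05. All 4 pairings of an EcR-RNAi library with a wild-type library had the same direction at each stage, lower at -6 h and higher at +6 h. The interaction was called in each of its 19 alternatives, at 1.36 to 1.67 and adjusted p-values of up to 0.00256. Groups of 2 libraries are too small to flag a single library as standing apart.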

How the results depend on the processing

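The Idgf4 values kept their direction and their call in each of the 20 alternatives of the 4 pairwise comparisons and the 19 of the interaction. They ranged from -4.26 to -3.88 (wild-type stage change), -2.67 to -2.36 (EcR-RNAi stage change), -0.89 to -0.76 (genotype at -6 h) and 0.52 to 0.83 (genotype at +6 h). Of the members, 2 were called in the wild-type stage comparison and 1 in each other. The 2 became 1 with a filter at a mean of 50, which leaves Idgf3 untested, and with upper-quartile scaling (Idgf3 at 1.23), quantile scaling (0.61) and DESeq2 (1.59), where the cause was not tested. With 1 library left out the number was 1 to 2 in this comparison and in the interaction. Idgf3 then ranged from 0.84 to 2.18 in wild type, from -2.49 to -1.15 for the interaction and from -0.70 to 0.079 in EcR-RNAi, the last value, of the opposite sign, without replicate 2 at +6 h.

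In the wild-type stage comparison the median over all genes moved by -0.31 with upper-quartile and -0.23 with quantile scaling. The shifts were -0.13 and -0.15 in the EcR-RNAi stage comparison, and upper-quartile scaling gave 0.15 for the genotypes at +6 h and 0.17 for the interaction. Over all genes, calls in the EcR-RNAi stage comparison numbered 1245 and fell to 620 when replicate 1 of the EcR-RNAi libraries of +6 h was left out and to 602 when replicate 2 was. At -6 h 845 genes differed between genotypes, 454 without replicate 2 of wild type, 553 without replicate 2 of EcR-RNAi and 1259 without its replicate 1, with lower calls going from 261 to 562. Counting CG5210 in the family, an alternative chosen after seeing the data, took the mean Idgf4 share from 98.7% to 96.9% and from 82.0% to 62.1% in wild type at -6 h and +6 h, and from 98.1% to 94.3% and from 89.0% to 84.7% in EcR-RNAi. Replicate numbers are shared by label only: same-numbered libraries of the groups compared had deviations correlated at -0.05 to 0.13. With a replicate block, 2, 1, 1, 1 and 1 members were called and all-gene calls numbered 4334, 1186, 818, 3326 and 2061. The wild-type Idgf4 change was -3.95 ± 0.12 with the block, limma adjusted p = 1.3e-09. Peak comparisons planned at the Idgf genes were not run, and no sequence of a member is shown. Low reads limit Idgf1, Idgf2, Idgf3 and Idgf5.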
